A study of Mus musculus with 7 samples.

Results

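The 268 barcodes described here are heart B cells from the 5 libraries of CD45+ leukocytes of a mouse myocardial infarction time course. B cells were taken as barcodes with at least 3 UMIs (unique molecular identifiers, counts of single transcripts) of Cd79a, a signalling chain of the B cell receptor. They also had 0 UMIs over Cd3d, Cd3e and Cd3g, the T cell receptor chains, and at most 2 UMIs over C1qa, C1qb and C1qc, complement genes of tissue macrophages. Quality limits (200 or more detected genes, mitochondrial share no higher than 10%) left 4763 barcodes in the 5 libraries, and 268 of them met this rule. The steady-state library gave 1 of 645 barcodes, day 1 gave 5 of 527, day 3 gave 3 of 848, day 5 gave 19 of 948 and day 7 gave 240 of 1795. The cells were thus selected on measured values, and Cd79a, Cd3 and C1q are given as a description and were not tested.

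Leukocytes were sorted from left ventricles of male C57BL6/J mice without infarction (the steady-state group) or at 1, 3, 5 and 7 days of infarction, induced by tying off the left anterior descending coronary artery for good. Tissue of 5 mice was pooled per time point, and of 3 mice on day 7, so each time point is 1 library without replicate mice. The sorted cells were viable, CD45+ and not stained by a CD45.2 antibody injected into the circulation shortly before death, which marks leukocytes inside vessels. After infarction the tissue was the infarct with its border zone and nearby viable muscle, a like part of the ventricle was taken without infarction, and neutrophils were partly depleted before loading (droplet 3' kit, version 2). The infarcted groups had no sham-operated counterpart among these 5 libraries.

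B cells recognise antigen through a membrane immunoglobulin that signals through the Cd79a and Cd79b chains, and they present antigen to T cells on MHC class II. Mature follicular B cells recirculate between blood and lymphoid tissue, using the chemokine receptors Ccr7 and Cxcr5, and carry the low-affinity IgE receptor Fcer2a (CD23). B1 cells, marginal zone cells, germinal centre cells and antibody-secreting plasma cells are other forms with their own genes. The heart holds B cells at rest, and after infarction B cells have been described in the injured muscle, in part as a source of the monocyte chemokine Ccl7.

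The kept libraries held 3655070 to 11528452 UMIs, and the median barcode had 9463.5 UMIs on day 3 but 3595 on day 7. B cells had medians of 2541, 6444, 2639, 2746 and 2624.5 UMIs from steady state to day 7. Pairs of libraries shared 0 to 2 barcode sequences, none of them a B cell. Scrublet, a doublet caller, marked 18 of 4763 barcodes and none of the B cells. That low a number means that doublets may remain.

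The day 7 library stood apart in how far B cell and macrophage transcripts overlapped. Barcodes with Cd79a at least 3 and no Cd3 numbered 974 on day 7, of which 240 had 0 to 2 C1q UMIs, 607 had 3 to 9 and 127 had 10 or more. The 127 had a median of 12356 UMIs, against 2624.5 in the 240. Of 553 day 7 barcodes with at least 10 C1q UMIs and no Cd3, 383 (69.3%) held some Cd79a, against 2.50% at steady state, 0% on day 1, 0.733% on day 3 and 3.9% on day 5. Among 89 day 7 barcodes with at least 3 Cd3 UMIs, 54 had no Cd79a. The rule therefore left out most Cd79a-positive barcodes of day 7, and the 607 with 3 to 9 C1q UMIs are shown beside the 240 in several places below. At the edge of the rule, 13 day 7 members had exactly 3 Cd79a UMIs, and 10 barcodes that met the other conditions had exactly 2.

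B cells made up 0.155% of barcodes at steady state (95% exact binomial interval 0.00393 to 0.861), 0.949% on day 1 (0.309 to 2.20), 0.354% on day 3 (0.0730 to 1.03), 2.00% on day 5 (1.21 to 3.11) and 13.4% on day 7 (11.8 to 15.0). These intervals cover counting error in 1 library only. The day 7 interval lay above all others. The day 5 interval lay above those of steady state and day 3 and overlapped that of day 1. With up to 9 C1q UMIs allowed, the shares were 1.09%, 0.949%, 0.354%, 2.74% and 47.2%, and with no C1q condition the day 7 share was 54.3%. Under a stricter rule (C1q 0 and the macrophage lysozyme Lyz2 at most 2 UMIs) 4 barcodes remained on day 7, or 0.223%. Day 7 thus had the highest share under the first 3 rules but not under the strict one, where day 1 had 0.569% (3 of 527) and the intervals of the 2 libraries overlapped. The mice, the library and the day cannot be told apart.

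**Figure D1:**
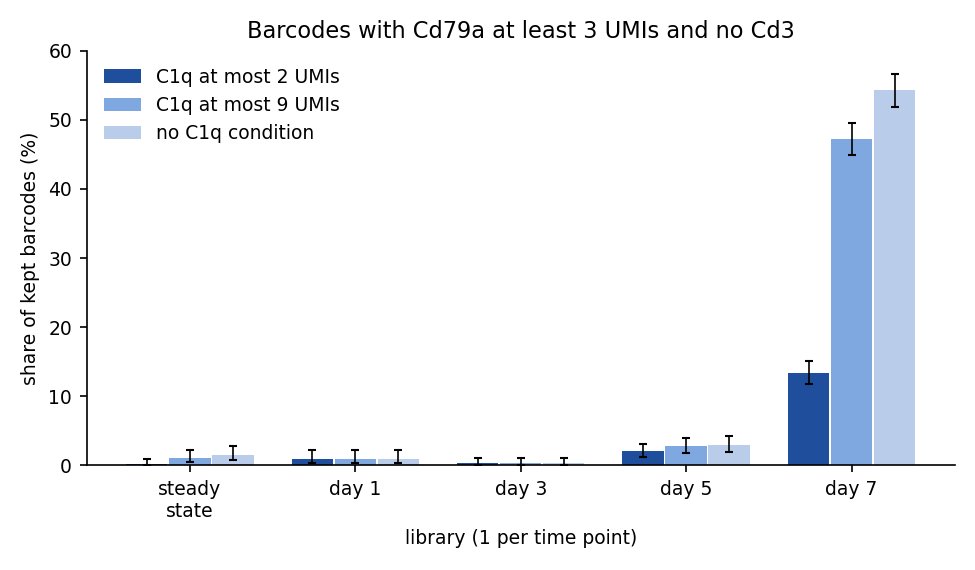
Share of kept barcodes (percent, y axis) in each CD45+ library (x axis) that had Cd79a at least 3 UMIs and no Cd3, for 3 limits on C1q (bars, 95% exact binomial intervals for counting error). Day 7 is the highest library under each of these limits, at 13.4%, 47.2% and 54.3%.

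Markers that the rule did not use matched the B cell label. Ms4a1 (CD20) was detected in 1 of 1, 2 of 5, 3 of 3, 14 of 19 and 188 of 240 B cells from steady state to day 7. T cells are taken here as barcodes with at least 3 Cd3 UMIs and no Cd79a, NK cells as barcodes with at least 2 UMIs over Ncr1 and Klrb1c and no Cd3 or Cd79a, both with up to 9 C1q UMIs. The level of Ms4a1, in CPM (UMIs of the gene in each 1000000 UMIs of the summed cells), was 394, 264, 749, 670.0 and 657 in the same order. The first 3 values rest on 1, 9 and 6 UMIs of Ms4a1, so only days 5 and 7 measure it with any precision. On day 7 the level was 631 CPM in the barcodes with 3 to 9 C1q UMIs, 9.35 in T cells, 11.8 in NK cells and 15.9 in C1q-high barcodes (at least 10 C1q UMIs, no Cd79a, no Cd3). The condition of no Cd79a kept 170 of the 553 day 7 barcodes with at least 10 C1q UMIs. It kept 54 of the 89 with at least 3 Cd3 UMIs. Low levels of B cell genes in these classes, here and below, can thus be set in part by that choice, and the part was not tested. Ms4a1 lies on the minus strand at chr19:11249675-11266241 and Cd79a on the plus strand at chr7:24897381-24902197 (GRCm38, GENCODE M21 annotation). Markers of other cells were rare in the day 5 B cells: T cell markers outside the rule summed to 15 UMIs (8 of 11 genes at 0), NK cell markers to 0 UMIs (12 of 12 genes at 0) and dendritic cell markers to 2 UMIs (7 of 8 at 0). On day 7 the same lists summed to 193 CPM (3 of 11 genes at 0), 88.9 CPM (2 of 12 at 0) and 13.8 CPM (3 of 8 at 0), against 3301 CPM of T cell markers in T cells.

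Macrophage transcripts were present in every lymphocyte class of day 7. The 7 macrophage markers outside the rule summed to 7131 CPM in B cells, 6396 in T cells and 51298 in C1q-high barcodes, with none at 0 in B cells. Apolipoprotein E (Apoe) stood at 4525 CPM in B cells, 3979 in T cells, 4050.2 in NK cells and 29637 in C1q-high barcodes. Lyz2 stood at 1769, 1571, 1295 and 15977 CPM in the same order. These 2 genes were thus at a like fraction of the C1q-high level in the 3 lymphocyte classes: 11.1%, 9.83% and 8.11% for Lyz2. Ms4a7 was at 10.1%, 10.8% and 9.06%, and Cd68 at 11.4%, 8.38% and 12.3%. The remaining markers were less even: Ctsd at 19.4%, 20.7% and 47.2%, Fcgr1 at 9.68%, 4.22% and 10.6%, and Csf1r at 7.45%, 6.63% and 2.39%. The part of RNA from other cells in each B cell result was not tested.

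To compare B cells with other lymphocytes, UMIs were summed per library and class for B, T and NK cells, allowing up to 9 C1q UMIs in each class so that enough libraries held them. Sums of at least 10 cells came from day 1 (13 T cells), day 5 (26 B, 13 T and 15 NK cells) and day 7 (847 B, 53 T and 20 NK cells). They were fitted with edgeR's quasi-likelihood test with the library as a block. The B cell sums thus include the 607 day 7 barcodes with 3 to 9 C1q UMIs, and every log2 difference below, with the levels for days 5 and 7 given beside it, is of these sums. B cells have 2 sums. With the library as a block, p-values measure how far class differences vary between pooled libraries of different days, with 2 residual degrees of freedom. The spread of each gene is mostly borrowed from all genes tested (29.7 prior degrees of freedom). Adjusted p-values below are from this edgeR test. Of 1510 genes tested, 267 (17.7%) passed a Benjamini-Hochberg adjusted p of 0.05 between B and T cells, 110 (7.28%) higher in B cells and 157 (10.4%) lower. Against NK cells, 316 (20.9%) passed, 142 (9.4%) higher and 174 (11.5%) lower. With only the B cells limited to 2 C1q UMIs, 222 genes (89 higher, 133 lower) passed against T cells and 256 (108 higher, 148 lower) against NK cells. These counts leave out genes of the class rules, of which 5 and 3 also passed and are no results. Scaling by total counts in place of TMM shifted the median difference of all genes by -0.20 and -0.28 on the log2 scale and gave 88 higher and 180 lower against T cells, and 101 higher and 236 lower against NK cells.

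Antigen receptor and lineage genes were higher in B cells than in both classes. Among the B cell markers, 9 of 12 outside the rule passed the filter on low counts, and all 9 were higher in B cells than in T cells (median log2 difference 5.33, or 4.63 with Cd22 at its bound, against -0.0027 over all genes tested). Over all genes tested, 7.28% were higher. Such genes pass the filter through the B cell sums, so the count of 9 is a description. Cd22, an inhibitory co-receptor of the B cell receptor, had 312 UMIs in day 7 B cells and 0 in T cells, which is at least 8.44-fold higher (floor of 3 UMIs in the T cell sum). Cd79b, the partner of Cd79a, stood at 682 CPM in B and 0 in T cells on day 5 and 518 and 42.1 on day 7 (log2 difference 4.24 ± 0.42 SE, adjusted p = 1.16e-09, not called by DESeq2). Ly6d, a surface protein of early and mature B cells, stood at 2147 CPM in B and 0 in T cells on day 5 and 1183 and 51.4 on day 7, a call that DESeq2 did not make. Of 17 receptor signalling genes, 11 were tested and 10 were higher than in T cells (7.28% over all genes tested), a description for the same reason. The exception was the phosphatase Ptpn6 (0.63 ± 0.35 SE, adjusted p = 0.287), which all leukocytes use. Among the 10 were the adaptor Blnk (386 against 1 UMI on day 7), the kinase Syk (337 against 3), the scaffold Bank1 (1017 against 3) and the tetraspanin Cd37, which differed least: 863 CPM in B and 349.6 in T cells on day 5 and 736 and 215 on day 7, a log2 difference of 1.78 ± 0.30 SE, adjusted p = 1.8e-05.

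B lineage transcription factors that could be tested were higher than in T cells, with 1 exception against NK cells. Of 14 listed factors 6 passed the filter, where B cell sums can carry a gene past it. These 6 were higher in B than in T cells, beside 7.28% over all genes tested, a count that is likewise a description. Ebf1, which specifies the B lineage, had 3729 UMIs in day 7 B cells and 2 in T cells, and 90 and 0 on day 5. Mef2c, a factor in B cell activation and survival, had 2131 and 1 on day 7 and 46 and 0 on day 5. Foxp1, also used by T cells, differed by less: 352 CPM in B and 92 in T cells on day 5 and 377 and 159 on day 7, a log2 difference of 1.54 ± 0.32 SE, adjusted p = 0.000408, and that call was lost in 4 of 17 alternatives (no library block, DESeq2, and the fits of sums of at least 5 cells without day 5 or without day 7). Against NK cells 5 of 6 were higher, beside 9.4% over all genes tested. Irf8 was lower, at 284 CPM in B and 1360.5 in NK cells on day 5 and 151 and 1754 on day 7 (log2 difference -2.82 ± 0.35 SE, adjusted p = 7.97e-08). Pax5, the identity factor of the B lineage, was not tested and stood on day 7 at 116 CPM in B cells (91.7 to 146, exact Poisson interval), 9.35 in T cells and 5.9 in C1q-high barcodes.

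Pou2f2 (Oct2) and its coactivator Pou2af1 (OBF-1) were both higher in B cells than in T cells, with 480 against 3 UMIs of Pou2f2 and 390 against 2 of Pou2af1 on day 7. Both act at the octamer, a short promoter element first known from immunoglobulin genes. The letters ATGCAAAT and their reverse complement ATTTGCAT, on both strands, were looked for in RefSeq promoters (GRCm38.p6, the 250 bases before the start). They were present in 5 of 80 promoters of genes higher in B than in T cells (6.25%), in 490 of 27025 promoters of all genes (1.81%), in 17 of 1162 of the genes tested (1.46%) and in 1 of 112 of genes lower in B cells (0.893%). A match describes these letters only and was not tested as a site. The windows of the 5 promoters are shown with the octamer in capitals, because the factor pair above is known to act at these letters. They belong to the kinase Prkcb (chr7:122289039-122289078, plus strand, octamer 70 bases before the start), the mitochondrial protein Chchd10 (chr10:75933031-75933070, plus strand, 83 bases before), the surrogate light chain relative Vpreb3 (chr10:75948239-75948278, plus strand, 45 bases before), the tetraspanin Tspan13 (chr12:36042575-36042614, minus strand, 120 bases before) and the adaptor Blnk (chr19:40994328-40994367, minus strand, 130 bases before). The Chchd10 window holds a further copy in lower case.
Prkcb: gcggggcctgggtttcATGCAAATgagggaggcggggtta
Chchd10: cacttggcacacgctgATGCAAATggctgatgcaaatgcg
Vpreb3: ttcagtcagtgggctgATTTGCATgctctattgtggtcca
Tspan13: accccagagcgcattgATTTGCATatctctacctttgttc
Blnk: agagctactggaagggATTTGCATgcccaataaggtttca
Prkcb, which passes the receptor signal on to NF-kappaB, stood at 170.4 CPM in B and 73.6 in T cells on day 5 and 164 and 42.1 on day 7 (log2 difference 1.89 ± 0.45 SE, adjusted p = 0.00185, not called by DESeq2). Vpreb3 had 584 against 2 UMIs on day 7. The call of Tspan13 was lost in 11 of 17 alternatives.

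Antigen presentation genes were the most abundant B cell transcripts among the lists. Of 11 MHC class II genes, 9 passed the filter and all 9 were higher in B cells than in T cells (median log2 difference 4.37) and than in NK cells (4.63, against 0.012 over all genes tested). Over all genes tested, 7.28% were higher than in T cells and 9.4% higher than in NK cells. Some of the 9 pass the filter through the B cell sums, such as H2-Oa with 1 and 3 UMIs in T cells on days 5 and 7. The count of 9 is therefore a description. Cd74, the invariant chain, had 25974, 14356, 42713, 41999.5 and 30605 CPM in B cells from steady state to day 7. The day 1 value, from 5 cells, was the lowest and the values of days 3 and 5 were the highest. Against T cells Cd74 stood at 40291 CPM in B and 460.0 in T cells on day 5 and 29171 and 1548 on day 7, a log2 difference of 5.55 ± 0.65 SE, adjusted p = 3.13e-08. The alpha and beta chains H2-Aa and H2-Ab1 differed from T cells by 5.03 ± 0.51 SE, adjusted p = 1.3e-09 and 4.10 ± 0.48 SE, adjusted p = 2.28e-08. C1q-high barcodes also held them, at 4036 CPM of H2-Aa against 7891 in B cells on day 7. The peptide-loading inhibitors H2-Oa and H2-Ob, chains of H2-O, and H2-DMb2 were far lower in C1q-high barcodes: 30.1 CPM of H2-Ob against 473 in B cells, and 80.2 CPM of H2-DMb2 against 1199.5.

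**Figure D2:**
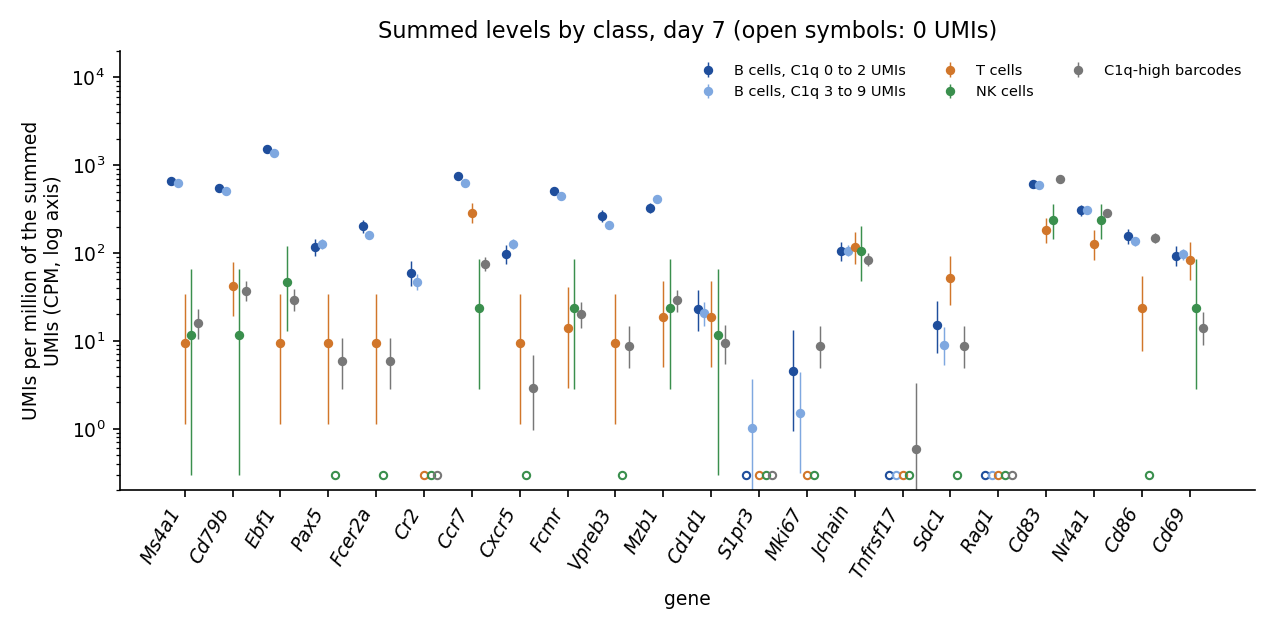
Level of identity, subset and activation genes on day 7 (x axis) in CPM (log y axis), in B cells by C1q limit, T cells, NK cells and C1q-high barcodes, with exact Poisson 95% intervals (open symbols at the foot mark 0 UMIs). Ms4a1, Ebf1, Fcer2a and Ccr7 are higher in both B cell groups than in the other classes, while Jchain is about level in all 5 groups and Rag1 is at 0.

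Taken as a set, genes listed for naive and follicular B cells were detected in most day 7 members, while Fcer2a was detected in 96 of 240. Of 11 such genes, 6 were tested against T cells and 4 were higher (Ccr7, Cxcr5, Fcmr and Cd55, median log2 difference over the 6 of 2.16). Over all genes tested, 7.28% were higher than in T cells. Cxcr5, Fcmr and Cd55 pass the filter through the B cell sums, so their part of these counts is a description. Klf2, a factor of resting recirculating lymphocytes (0.19 ± 0.28 SE, adjusted p = 0.762), and Satb1 (0.48 ± 0.29 SE, adjusted p = 0.318) did not pass. Against NK cells all 6 tested were higher, beside 9.4% over all genes tested. The call of Satb1 (1.02 ± 0.33 SE, adjusted p = 0.0228) was lost in 10 of 16 alternatives. Ccr7, which guides cells to lymphoid tissue, had 787, 849.6, 1249, 511 and 758 CPM from steady state to day 7 (2, 29, 10, 29 and 495 UMIs). The gene was detected at every time, and on day 7 the level was 285 in T cells and 74.9 in C1q-high barcodes. In the fit the log2 difference from T cells was 1.10 ± 0.28 SE, adjusted p = 0.00401, a call lost in 5 of 18 alternatives (thinned counts, no library block, no filter, DESeq2, and sums of at least 5 cells without day 7). Ccr7 lies at chr11:99144196-99155077 on the minus strand.

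Fcer2a (CD23), the defining surface gene of follicular B cells, had 0, 0, 0, 4 and 132 UMIs in the members from steady state to day 7, or 70.5 CPM on day 5 and 202 on day 7 (169 to 239.8). The 9 cells of the first 3 libraries were too few to show whether they lacked it. At steady state it was present in 5 of the 6 barcodes with 3 to 9 C1q UMIs, which the rule left out (13 UMIs, 664 CPM). On day 7 the level was 160.3 in barcodes with 3 to 9 C1q UMIs, 9.35 in T cells, 0 in NK cells and 5.9 in C1q-high barcodes. Fcmr, the IgM receptor, stood at 509 CPM in B cells and 14 in T cells, and the BAFF receptor Tnfrsf13c, which transmits the survival signal of mature B cells, at 104 CPM and 0. Fcer2a lies at chr8:3681737-3694175 on the minus strand.

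To set depth equal, each barcode was thinned to 1000 UMIs, and no barcode of the day 7 classes was too shallow for this. Ccr7 was then detected in 111 of 240 B cells (46.25%, 39.8 to 52.8), 10 of 53 T cells (18.9%, 9.44 to 32) and 4 of 170 C1q-high barcodes (2.35%, 0.645 to 5.91). Fcer2a was detected in 19.2% (14.4 to 24.7) of B cells, 1.89% (0.0478 to 10.1) of T cells and 1.18% (0.143 to 4.19) of C1q-high barcodes. For both genes the B cell interval lay above those of T cells and C1q-high barcodes. At least 1 of 5 follicular genes (Fcer2a, Cr2, Cxcr5, Fcmr and Vpreb3) was detected in 154 of 240 B cells (64.2%, 57.7 to 70.2), 3 of 53 T cells (5.66%, 1.18 to 15.7), 0 of 20 NK cells (up to 16.8%) and 6 of 170 C1q-high barcodes (3.53%, 1.31 to 7.52). At least 2 were detected in 50 B cells (20.8%) and in 0 of 53 T cells, which allows a share of up to 6.72%. Without thinning, 221 of 240 B cells (92.1%) had at least 1 of them. Fcmr is also on the list of B cell markers and Vpreb3 on that of precursor genes. The classes set beside are not B cells, so these shares do not tell follicular cells from other B cells. On day 5 the thinned count was 12 of 19 (63.2%, 38.4 to 83.7). The day 5 and day 7 shares were not distinguishable at this number of cells.

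**Figure D3:**
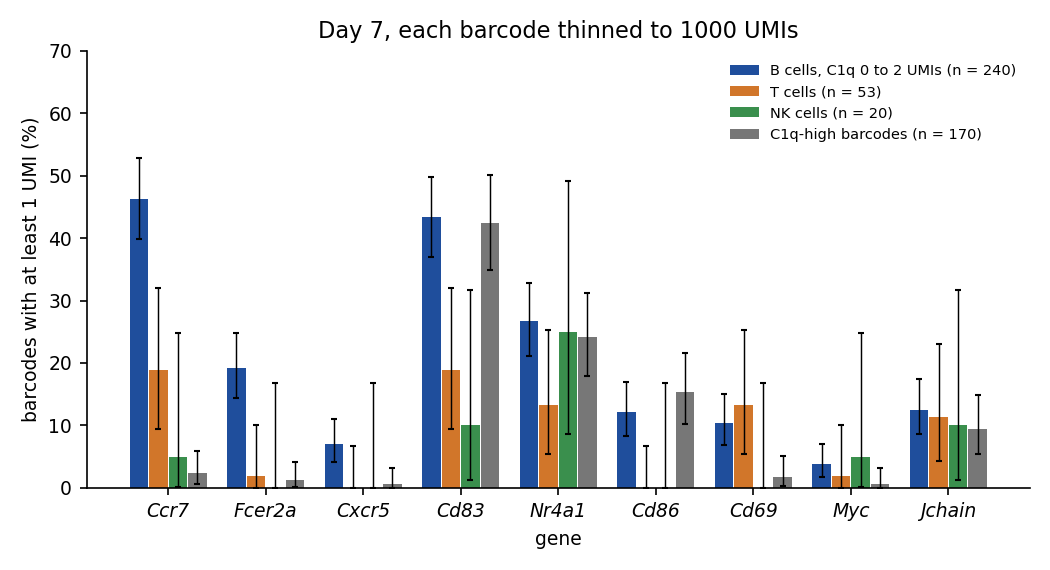
Share of day 7 barcodes with at least 1 UMI of each gene after thinning to 1000 UMIs (percent, y axis), in B cells, T cells, NK cells and C1q-high barcodes, with exact binomial 95% intervals for counting error. Ccr7 and Fcer2a are highest in B cells, the Cd83 and Nr4a1 intervals of B cells and C1q-high barcodes overlap, and the Jchain intervals overlap in all 4 classes.

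Marginal zone genes differed among themselves in the 240 cells. S1pr3 was not seen and Cd1d1 was near its T cell level, while Mzb1 and Plac8 were detected in 126 and 120 cells. Of 11 marginal zone genes, 4 were tested and 2 were higher than in T cells: Mzb1, a chaperone of antibody assembly, at 795 CPM in B and 0 in T cells on day 5 and 390.3 and 18.7 on day 7, and Plac8 at 1340.4 CPM in B and 129 in T cells on day 5 and 603 and 164 on day 7 (log2 difference 2.55 ± 0.32 SE, adjusted p = 1.24e-07). Both are also found outside marginal zone cells, and Plac8 was at 425 CPM in C1q-high barcodes against 429 in day 7 B cells. The sphingosine receptor S1pr3, typical of marginal zone cells, had 0 UMIs on day 7, and Cd1d1 had 15 UMIs (23 CPM, near the 18.7 CPM of T cells). The complement receptor Cr2 (CD21), which both follicular and marginal zone cells carry, stood at 59.7 CPM, with 0 UMIs in T cells, NK cells and C1q-high barcodes. Of 13 B1 genes, 7 were tested and none was higher than in T cells, while 4 were lower (Ahnak, Anxa2, Ctla4 and the galectin Lgals1, median log2 difference over the 7 of -1.28). Over all genes tested, 7.28% were higher than in T cells and 10.4% lower, and Mzb1 passes the filter through the B cell sums. The B1 differences are from T cells, in sums with up to 9 C1q UMIs, and give no B1 level in the 240 cells. Lgals1 stood at 318 CPM in B and 2374 in T cells on day 5 and 294 and 1150.2 on day 7, a log2 difference of -2.16 ± 0.32 SE, adjusted p = 2.7e-06. That call was lost in 3 of 18 alternatives (no library block, and sums of at least 5 cells without day 5 or without day 7), and the calls of Anxa2 and Ahnak in 9 of 18 and 7 of 16.

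A minority of barcodes carried B1 transcripts. The 6 genes Bhlhe41, Zbtb32, Zcwpw1, Cd5, Spn and Ctla4 were summed per barcode, and barcodes with at least 2 UMIs were counted, a split chosen after the values had been seen. On day 1, 2 of 5 B cells had them, with 7 and 19 UMIs, and on day 5 1 of 19 did, with 3 UMIs. Of the 7, 5 were of Ctla4, and of the 19, 13 were of Zcwpw1 and 4 of Ctla4. The 3 UMIs on day 5 were all of Zcwpw1. Cd5 was at 0 UMIs in each of these barcodes. Both day 1 barcodes had 0 UMIs of Ms4a1, with 0 and 1 UMI of Ebf1 and 2 and 9 of Cd79b. They held 21 and 13 UMIs of the neutrophil genes S100a8 and S100a9, and 2 of the 5 day 1 cells had under 10. On day 7, 0 of 240 had them, which allows a share of up to 1.53% (upper bound of the exact interval), against 14 of 607 barcodes with 3 to 9 C1q UMIs (2.31%, 1.27 to 3.84). The 14 were deeper, with a median of 7501 UMIs against 2737 in the other 833 day 7 barcodes with up to 9 C1q UMIs. None of them held Fcer2a, against 177 CPM in the others. S100a6, a calcium-binding protein, stood at 3370 CPM against 301, Vim (vimentin) at 1031 against 255 and Plac8 at 1903 against 552. Fcmr stood at 198 against 475 CPM. Being described after the split, these differences carry no test, and the part of depth in them was not tested. Within the 14, 1 barcode had 26 UMIs, all of Zcwpw1, and 1 had 12, of which 11 were Zcwpw1. Cd5 was at 0 UMIs in all 14.

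**Figure D4:**
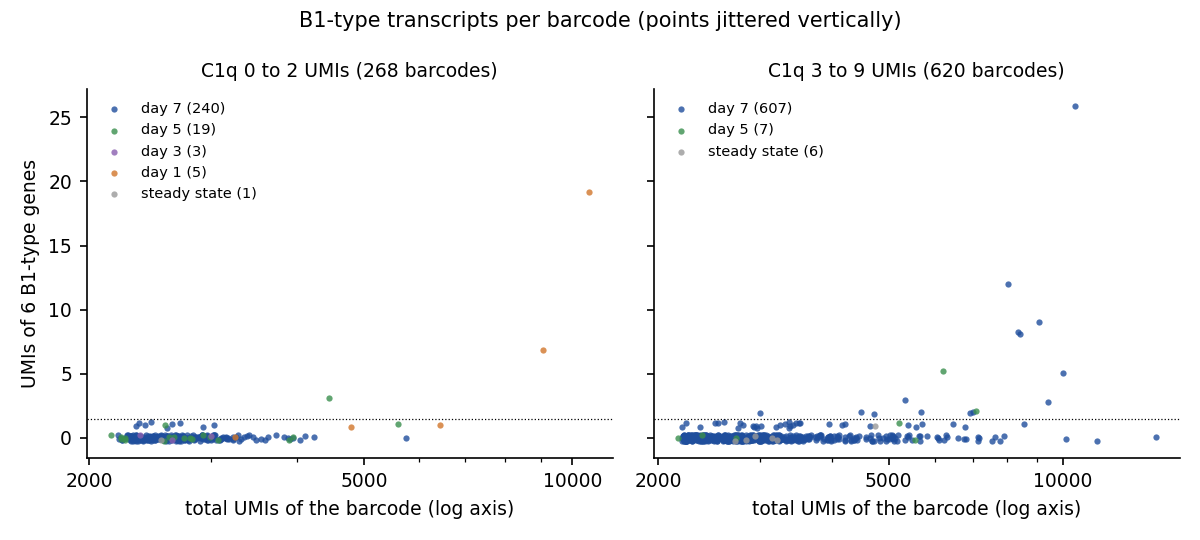
UMIs of 6 B1 genes per B cell barcode (y axis, jittered vertically) against the barcode's total UMIs (log x axis), for barcodes with 0 to 2 C1q UMIs (left) and 3 to 9 (right), by library. The dotted line separates barcodes with at least 2 of these UMIs, and those above it, 3 on the left (days 1 and 5) and 16 on the right (14 of day 7 and 2 of day 5), are mostly among the deeper ones.

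Precursor, germinal centre and plasma cell genes were at or near 0, apart from those that mature B cells share. Of 12 transitional and precursor genes, 4 were tested, with Vpreb3, Ly6d and Cd24a higher in B cells than in T cells and the interleukin 7 receptor Il7r lower. The shares over all genes tested were 7.28% and 10.4%. Vpreb3, Ly6d and Cd24a pass the filter through the B cell sums, which makes their count a description. Cd24a, a surface protein highest on immature B cells, stood at 239 CPM in B and 0 in T cells on day 5 and 204 and 23.4 on day 7 (3.66 ± 0.56 SE, adjusted p = 4.73e-06). Rag1 and Rag2, the recombinases of developing lymphocytes, and Vpreb1 and Igll1, the surrogate light chains, had 0 UMIs in the 240 day 7 cells (652774 UMIs in all, so up to 4.6 CPM per gene at 3 counts) and in the 19 day 5 cells. The proliferation genes Mki67, Top2a and Stmn1 were seen in 3, 7 and 23 of the 240 cells, never with more than 1 UMI in a cell. Among plasma cell genes, Sdc1 had 10 UMIs, Prdm1 1 and Tnfrsf17 (BCMA) 0. Jchain, the joining chain of secreted IgM and IgA, was detected in 62 of 240 B cells, with at most 3 UMIs in a cell. After thinning it was detected in 12.5% (8.59 to 17.4) of B cells, 11.3% (4.27 to 23) of T cells and 9.41% (5.48 to 14.8) of C1q-high barcodes. The 3 intervals overlapped, and no B cell expression is read from these shares. No germinal centre gene examined and no gene of the age-associated list (Tbx21, Itgax, Zeb2 and 5 others) passed the filter for testing. Immunoglobulin constant genes were not analysed here.

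Of 22 activation genes, 11 were tested against T cells: Cd83, Cd86, Nfkbid and Nr4a1 were higher, Tnfaip3 was lower and 6 did not pass (median log2 difference 0.42). Over all genes tested, 7.28% were higher than in T cells and 10.4% lower. Against NK cells 6 were higher (Cd83, Cd86, Nr4a1, Nfkbid, Bcl2a1b and Gpr183) and 3 lower (Tnfaip3, Ccl4 and Dusp2). There the shares over all genes tested were 9.4% and 11.5%. Cd86, with 0 UMIs in NK cells, passes the filter through the B cell sums. Cd83, a surface protein that stabilises MHC class II and Cd86, had 1968, 1377, 1748, 1252 and 617 CPM in B cells from steady state to day 7 (5, 47, 14, 71 and 403 UMIs). The day 7 level was the lowest of the 5 libraries and still above that of T cells. The log2 difference from T cells was 2.66 ± 0.40 SE, adjusted p = 2.64e-06 and from NK cells 2.69 ± 0.42 SE, adjusted p = 6.75e-06. Nr4a1 (Nur77), an early target of antigen receptor signals, had 0, 264, 499.6, 670.0 and 305 CPM (0, 9, 4, 38 and 199 UMIs). Its log2 difference from T cells was 1.71 ± 0.31 SE, adjusted p = 6.76e-05, a call lost in 3 of 17 alternatives (no C1q limit, and sums of at least 5 cells without day 5 or without day 7). That from NK cells, 0.87 ± 0.31 SE, adjusted p = 0.0382, was lost in 13 of 17 alternatives. The co-stimulator Cd86 differed from T cells by 2.33 ± 0.59 SE, adjusted p = 0.0034, a call lost under DESeq2. Tnfaip3 (A20), a brake on NF-kappaB, was lower in B cells than in both other classes. It stood at 56.8 CPM in B and 368 in T cells on day 5 and 36.4 and 224 on day 7, a log2 difference of -2.57 ± 0.35 SE, adjusted p = 6.86e-07, and -2.96 ± 0.37 SE, adjusted p = 8.73e-08 against NK cells. Cd83 lies at chr13:43784775-43803132 and Nr4a1 at chr15:101254269-101274795, both on the plus strand.

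C1q-high barcodes also carried Cd83, Nr4a1 and Cd86, at shares whose intervals overlapped those of B cells. After thinning, Cd83 was detected in 43.3% (37 to 49.9) of B cells, 18.9% (9.44 to 32) of T cells and 42.4% (34.8 to 50.2) of C1q-high barcodes. Nr4a1 was detected in 26.7% (21.2 to 32.7), 13.2% (5.48 to 25.3) and 24.1% (17.9 to 31.3), and Cd86 in 12.1% (8.24 to 16.9), 0% (up to 6.72%) and 15.3% (10.2 to 21.6). Cd69, an early activation and retention marker, had another order: 10.4% (6.86 to 15), 13.2% (5.48 to 25.3) and 1.76% (0.365 to 5.07). Per cell, at least 3 of 8 activation genes (Cd83, Nr4a1, Nfkbid, Dusp2, Cd69, Cd86, Myc and Egr1) were detected in 30 of 240 B cells (12.5%, 8.59 to 17.4), 0 of 53 T cells (up to 6.72%), 1 of 20 NK cells and 28 of 170 C1q-high barcodes (16.5%, 11.2 to 22.9). None of the 8 was detected in 63 B cells (26.25%) and 24 T cells (45.3%). On day 5, 3 of 19 B cells (15.8%, 3.38 to 39.6) had at least 3. Immediate early and heat shock genes, which tissue digestion can induce, passed in 1 case: of 13, 9 were tested, 0 were higher than in T cells and 1, Hspa8, was lower, a call lost in 11 of 18 alternatives. The shares over all genes tested were 7.28% higher and 10.4% lower. Against NK cells 1 was higher (Zfp36) and 0 were lower, beside 9.4% and 11.5% over all genes tested. Fos stood at 136 CPM in B and 221 in T cells on day 5 and 156 and 84.2 on day 7 (0.48 ± 0.42 SE, adjusted p = 0.573).

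Adhesion and homing genes divided between the classes. Of 18 trafficking genes 12 were tested against T cells, with Cxcr5, Ccr7 and Cxcr4 higher and Itgb7, Itgb2, Itgb1, Selplg and Ccr2 lower (median log2 difference -1.15). Over all genes tested, 7.28% were higher and 10.4% lower. Against NK cells Cxcr5, Ccr7, Gpr183 and Klf2 were higher and Itgb1, Itgb2, Selplg and Ccr2 lower (over all genes tested, 9.4% and 11.5%). Selplg (PSGL-1), the ligand of P-selectin, stood at 159 CPM in B and 920.0 in T cells on day 5 and 83.1 and 725 on day 7, a log2 difference of -2.81 ± 0.31 SE, adjusted p = 1.05e-08 from T cells and -3.18 ± 0.32 SE, adjusted p = 7.89e-10 from NK cells. The integrin chain Itgb7 stood at 204 CPM in B and 791 in T cells on day 5 and 96.3 and 192 on day 7 (-1.27 ± 0.32 SE, adjusted p = 0.00326), a call lost in 4 of 15 alternatives. Those of Itgb1 and Itgb2 were lost in 5 and 6 of 16. Ccr2, the receptor for Ccl2 and Ccl7, stood at 0 CPM in B and 202 in T cells on day 5 and 19 and 93.5 on day 7 (-2.70 ± 0.53 SE, adjusted p = 0.000197). Cxcr5, the receptor that guides B cells to follicles, had 315 UMIs in day 7 B cells against 2 in T cells. Cxcr4, the receptor for Cxcl12, stood at 204 CPM in B and 92 in T cells on day 5 and 222 and 88.8 on day 7 (1.43 ± 0.37 SE, adjusted p = 0.00401, lost in 3 of 16 alternatives).

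No tested cytokine gene was higher in B cells than in T cells. Of 15, 6 were tested, 0 were higher and Ccl5, which T and NK cells make, was lower (-5.83 ± 0.57 SE, adjusted p = 6e-10). The shares over all genes tested were 7.28% higher and 10.4% lower. Ccl7 stood on day 7 at 204 CPM in B cells (171 to 241), 168 in T cells, 212 in NK cells and 993 in C1q-high barcodes. The B cell level of Ccl7 thus lay between those of T and NK cells and at 20.5% of the C1q-high level. The log2 difference from T cells did not pass (0.59 ± 0.38 SE, adjusted p = 0.371). Il1b was at 449, 351, 447 and 4081 CPM, and Il10 at 24.5, 9.35, 23.5 and 135. All 3 B cell levels were below those of C1q-high barcodes. Lymphotoxin beta (Ltb), which shapes lymphoid tissue, had another pattern: 249.7 CPM in B cells, 289.9 in T cells, 70.6 in NK cells and 19.5 in C1q-high barcodes. It differed from NK cells (2.50 ± 0.43 SE, adjusted p = 2.62e-05, lost in 4 of 17 alternatives) and did not pass against T cells (-0.28 ± 0.27 SE, adjusted p = 0.603). Tgfb1 was lower than in NK cells (-0.91 ± 0.30 SE, adjusted p = 0.0261), a call lost in 10 of 18 alternatives and turned in 1.

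**Figure D5:**
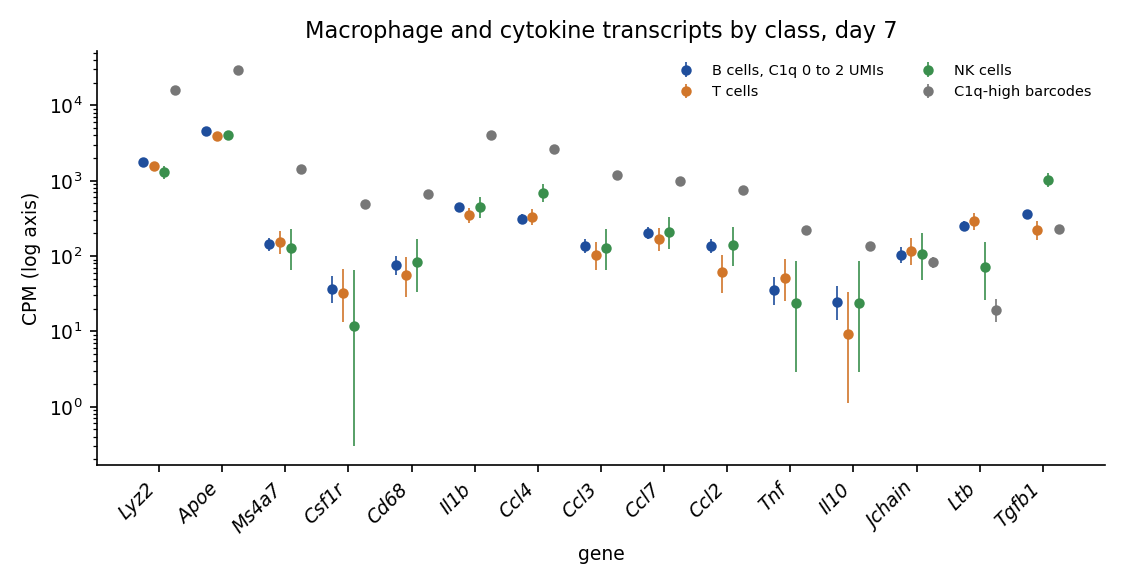
Level of macrophage and cytokine genes on day 7 (x axis) in CPM (log y axis), in B cells, T cells, NK cells and C1q-high barcodes, with exact Poisson 95% intervals. For Lyz2, Apoe, Il1b and Ccl7 the 3 lymphocyte classes lie close together and well below the C1q-high barcodes, while Ltb is higher in B and T cells than in the C1q-high barcodes.

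Some receptors for cytokines and some survival genes differed between the classes. Of 17 receptors 6 were tested, with 1 higher and 1 lower than in T cells (over all genes tested, 7.28% and 10.4%). Against NK cells Ly86 and Il21r were higher and Ifngr1 was lower (over all genes tested, 9.4% and 11.5%). The interferon gamma receptor chain Ifngr1 stood at 363 CPM in B and 1950.5 in T cells on day 5 and 146 and 846 on day 7, a log2 difference of -2.35 ± 0.35 SE, adjusted p = 2.24e-06 from T cells and -2.72 ± 0.35 SE, adjusted p = 1.69e-07 from NK cells. Ly86, the partner of the Toll-like receptor homologue Cd180, was higher than in T cells (667 against 4 UMIs on day 7). The other 4 of 6 tested receptors did not pass against T cells. The Toll-like receptor genes Tlr9 and Tlr4 had 0 UMIs in day 7 B cells and Tlr7 had 6. Of 10 survival genes 8 were tested, 0 were higher than in T cells and 2 were lower (Bcl2 and Bcl2a1d, median log2 difference -0.41). Over all genes tested, 7.28% were higher and 10.4% lower. Against NK cells Bcl2a1b and Bcl2a1d were higher and Bcl2 and Bcl2l11 lower (over all genes tested, 9.4% and 11.5%). Bcl2, which blocks cell death, stood at 45.4 CPM in B and 313 in T cells on day 5 and 71.3 and 173 on day 7 (-1.47 ± 0.34 SE, adjusted p = 0.00129, lost in 5 of 17 alternatives). Of 12 interferon-induced genes 4 were tested, 0 were higher than in T cells and 1, Isg15, was lower (-1.78 ± 0.54 SE, adjusted p = 0.016), beside 7.28% and 10.4% over all genes tested. Against NK cells Ifi27l2a was higher and Irf7 lower, beside 9.4% and 11.5% over all genes tested. No macrophage marker outside the rule (0 of 4 tested) and no neutrophil marker (0 of 2) passed between B and T cells. Over all genes tested 17.7% passed, and with so few markers nothing is read from these counts. Against NK cells 1 of the 4, Ctsd, was lower in B cells (-1.39 ± 0.29 SE, adjusted p = 0.000368, lost in 2 of 18 alternatives). There 20.9% of all genes tested passed.

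The rule on fitted log2 differences named Cd22, Mef2c, Ebf1, Ms4a1, Scd1, Siglecg, Cd74 and Blnk as the 8 with the largest values above T cells. Cd22 has its place through a fitted value against 0 UMIs in T cells, which is no bound, so no order among the genes is read. Scd1, a fatty acid desaturase, had 818 UMIs in day 7 B cells and 1 in T cells, and Siglecg, an inhibitory lectin of B cells, 538 and 1. Below T cells it named the co-stimulator Icos (1 against 56 UMIs on day 7), the chemokine receptor Cxcr6 (2 against 70), the factor Rora (1 against 33) and Cd8b1 (5 against 58). Against NK cells, Bank1 was at least 10.9-fold higher on day 7, Vpreb3 at least 6.27-fold, Pou2f2 at least 5.15-fold, Pou2af1 at least 4.19-fold, Cd86 at least 3.98-fold, Cxcr5 at least 3.38-fold and Cd22 at least 3.35-fold, each with 0 UMIs in NK cells, and these bounds are not a ranking. Below NK cells it named the receptors Klra7 (2 against 42 UMIs) and Klra9 (1 against 32), the chemokine Xcl1 (10 against 110) and the granzyme Gzma (51 against 531). The rule took only genes with the same direction on days 5 and 7, the 2 libraries with both classes, so that agreement is no result.

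Day 5 was the only other library with enough B cells (19 cells, 56715 UMIs) to set beside day 7, and with 1 library per day no test was possible. Of 675 genes with at least 200 CPM in the higher sum, 89 (13.2%) differed at least 2-fold, 14 (2.07%) higher on day 7 and 75 (11.1%) lower. With median-ratio scaling, 80 of 702 passed, 34 higher and 46 lower. Ratios are given with exact intervals for counting error. Fcer2a was 2.87-fold higher on day 7 (1.09 to 10.7, from 4 UMIs on day 5), and Ralgps2, an exchange factor of B cells, 3.82-fold (1.28 to 18.8, from 3 UMIs on day 5). The chemokine Ccl4 was 3.53-fold higher (1.49 to 11) and Il1b 2.55-fold (1.36 to 5.36) in B cells, beside 3.61-fold and 2.12-fold in T cells of the same libraries. Ctsd, a lysosomal protease, was 2.43-fold higher (1.40 to 4.61), against 1.11-fold in T cells.

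Of the 5 genes lowest on day 7 against day 5, S100a6 and Tpm1 came mostly from 1 or 2 day 5 cells. S100a6 had 41 UMIs on day 5, of which 23 and 12 came from 2 cells, and a ratio of 0.225 (0.155 to 0.330). Tpm1 had 16, of which 15 came from 1 cell, and a ratio of 0.0380 (0.0132 to 0.0977). With up to 9 C1q UMIs allowed, the ratios of S100a6 and Tpm1 were 0.380 and 0.0946. Saa3, a serum amyloid protein of inflamed tissue, had a ratio of 0.203 (0.0998 to 0.438), beside 0.208 in T cells and 0.0440 in C1q-high barcodes. Ass1, an enzyme of arginine synthesis, had a ratio of 0.0936 (0.0408 to 0.216), or 0.182 with up to 9 C1q UMIs, and Ndufab1, a mitochondrial carrier protein, 0.253 (0.128 to 0.536), or 0.386. Cd83 and Nr4a1, described above, were also lower on day 7, at 617 against 1252 CPM and 305 against 670.0 CPM. Nfkbid was at 135 against 529 CPM, where 14 and 12 of the 30 day 5 UMIs came from 2 cells. The 5 B cells of day 1 held S100a6 at 2608 CPM, beside 723 on day 5 and 162 on day 7. Of its 89 UMIs on day 1, 19, 32 and 36 came from 3 cells, of which 2 were the barcodes with B1 transcripts. S100a8 and S100a9 summed to at least 10 UMIs in 3 of the 5 day 1 cells.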

How the data were processed

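The authors deposited raw counts (UMIs per gene and barcode, 27998 genes), made with Cell Ranger on GRCm38 (mm10) per the submitters' processing notes; the version and other settings are not given in the sources used here. Quality limits were 200 detected genes as a minimum and a mitochondrial share of 10% as a maximum. The B cells and gene lists were chosen with earlier results of these data known. UMIs were summed per library and class and fitted with edgeR 4.0.16 (R 4.3.3; TMM, quasi-likelihood, two-sided, default filter on low counts, library as block, Benjamini-Hochberg over all genes tested). Each library carries 1 label for all its classes, so the block pairs classes that share mice and droplets. The fit planned, with at most 2 C1q UMIs in each class, had no residual degrees of freedom, so a limit of 9 was used, chosen after seeing the data. The planned comparison of days needed 30 B cells and only day 7 had them, so day 5 with 19 was set beside it at 200 CPM. Levels have exact Poisson intervals, shares exact Clopper-Pearson intervals, both 95% and for counting error only. Floors are 3 counts. Thinning to 1000 UMIs used a fixed seed. Depth is given by library in the report. Scrublet ran in scanpy 1.11.5, and DESeq2 1.42.0 was an alternative. Named genes were list members with the highest level or largest change, the 8 highest and 4 lowest changes per class comparison (mean of at least 50 CPM, same direction in each library), and the 5 highest and 5 lowest ratios between days. The fit was checked on simulated data. Some listed genes are not reported here and are left out of the lists' counts. Unmapped CD11b+ pools were left out of all comparisons. Alternatives changed the C1q, Cd79a and mitochondrial limits, cell minimum, depth, block, scaling, filter and tool, and left out each library in turn.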

Additional observations from a re-analysis of the deposited data

Results flagged for a closer look

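In data that no comparison uses, 30 of 11592 barcodes of the blood and heart CD11b+ pool met the B cell rule (0.259%, 95% exact binomial interval 0.175 to 0.369). Their median depth was 18484.5 UMIs against 4642 in the pool. Igkc, the kappa light chain, was detected in 28 of 30 (93.3%), with up to 10686 UMIs in a barcode. Jchain was detected in 14 of 30 (46.7%) against 0.874% of the other barcodes. Ms4a1 was detected in 19 of 30. The neutrophil gene S100a8 was detected in 29 of 30 (96.7%), with up to 697 UMIs in a barcode, against 96.8% of the others. Depth was not set equal for these shares, and RNA from other cells or doublets were not tested. In the heart CD11b+ pool, 2 of 4835 barcodes met the rule (0.0414%). The labels do not map these barcodes to single samples, so no group was compared.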

How the results depend on the processing

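Of 1450 refits of the named genes' differences, 1276 kept direction and side of the threshold, 173 kept the direction only and 1 turned. That one was Tgfb1 against NK cells, 0.27 on the log2 scale without the day 7 library among sums of at least 5 cells. Without the replicate block, which pairs classes of a library, 165 genes passed against T cells and 190 against NK cells. Sums of at least 5 cells gave 158 and 197, thinned cells 55 and 82 (361 genes tested), DESeq2 123 and 169, and no low-count filter 383 and 384. Leaving out day 1 from sums of at least 10 cells gave 266 and 306. Day 1 held only a T cell sum there, which its own library term takes up, so that fit does not check the class differences. Leaving out each library from sums of at least 5 cells gave 65 to 195 against T cells and 68 to 249 against NK cells, lowest without day 7, then without day 5 (86 and 117). Among the fits of at least 5 cells, calls against T cells that ended without day 7 were those of Pou2f2, Foxp1, Nr4a1, Nfkbid, Ccr7, Cd37, Itgb1, Itgb2, Lgals1, Anxa2, Ahnak, Bcl2, Bcl2a1d, Hspa8, Bank1, Tspan13 and Cd81. Those of Foxp1, Nr4a1, Cxcr4, Itgb1, Lgals1, Anxa2, Ahnak, Bcl2, Hspa8 and Tspan13 ended without day 5, and those of Itgb7, Itgb2, Anxa2, Ctla4, Ahnak, Bcl2, Bcl2a1d, Hspa8 and Tspan13 without steady state. Against NK cells, Klf2, Ltb, Nr4a1, Cd37 and Tgfb1 ended both without day 5 and without day 7, Cd83 and Satb1 without day 5, and Bank1, Pou2f2, Klra9, Foxp1, Cd9, Bcl2 and Bcl2a1d without day 7. Satb1, Nr4a1 and Tgfb1 also ended without steady state and without day 1, and Bcl2a1d without steady state. DESeq2 did not call Cd79b, Ly6d, Mzb1, Bank1, Vpreb3, Prkcb, Tspan13, Cd86, Lyn, Cd72, Foxp1, Ccr7, Cxcr4, Itgb7, Itgb1, Itgb2, Anxa2, Ahnak, Bcl2, Bcl2a1d, Hspa8 and Isg15 against T cells, nor Bank1, Vpreb3, Cd22, Satb1, Nr4a1, Irf8, Tgfb1, Cd9, Gpr183, Il21r, Bcl2a1d and Zfp36 against NK cells. The planned fit, sums of at least 20 cells, the strict rule, and sums of at least 10 cells without day 5 or day 7 could not be fitted.

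The steady-state share was 1.55% with no C1q limit, 1.09% with a limit of 9, 0% under the strict rule and 100% of lymphocytes. On day 1 it was 26.3% of lymphocytes and 4.08% without neutrophil-like barcodes. On day 3 it was 0% (strict) and 33.3% (of lymphocytes), and on day 5 0.105% and 55.9%. On day 7 it was 11.4% with at least 5 Cd79a UMIs, 47.2% and 54.3% with a C1q limit of 9 or none, 0.223% (strict) and 92.7% (of lymphocytes). Genes past 2-fold between days 7 and 5 numbered 49 with no C1q limit, 312 at 100 CPM and 675 at 50 CPM. Shares on day 7 moved with depth: unthinned they were 80% for Ccr7, 40% for Fcer2a, 20.8% for Cxcr5, 73.3% for Cd83 and 43.75% for Nr4a1. At 1500 UMIs they were 61.25%, 25%, 12.9% and 55% for Ccr7, Fcer2a, Cxcr5 and Cd83. The cause of these changes was not tested. Alternatives with a C1q limit of 9, sums of at least 5 cells or day 5 were chosen after seeing the data.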
